A study of Arabidopsis thaliana with 9 samples.

Results

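The loci described here are 78 annotated genes on the arms of the 5 chromosomes of Arabidopsis thaliana at which all 3 rls6 libraries held more small RNA than every library of the other genotypes. A locus was taken when its lowest rls6 value plus 1 was at least 2 times the highest value plus 1 of the 6 other libraries, and its mean in rls6 was at least 10 normalized reads (read counts divided by a size factor per library). Gene identifiers around the centromeres were left out, as were AT4G14810 and AT5G39370. Of 37336 listed loci, 29624 were arm loci by this rule, and 1603 of these averaged at least 10 normalized reads in rls6. The 78 loci were chosen by the gap between rls6 and both other genotypes. Values of that gap are therefore given as description, with no test.

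Small RNAs of 17 to 30 nt came from soil-grown plants of rls6, prors1 (LUC) and Col-0 (LUC), with 3 libraries each, grown for 25 days under 16 h light and 8 h dark. The labels name no agent and do not state what LUC marks, which change rls6 carries, or whether rls6 also has prors1 or LUC. Another label field gives an age of 26 days and names of the form rbp-ko for both mutants. The series title concerns RBP45D, an RNA-binding protein, flowering time under heat, and RNA-directed DNA methylation without DCL3. The labels do not state whether libraries of the same genotype are of different plants, so the p-values below measure the spread between these libraries, which may be technical. The libraries held 611238 to 702303 reads over listed genes, and rls6 libraries 649353 to 679773.

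In plants, most small interfering RNAs of 24 nt are made from transcripts of RNA polymerase IV, copied by RDR2 and cut by DCL3, and they guide methylation of matching DNA. Others, of 21 or 22 nt, arise when a transcript cut by a microRNA or present in excess is copied into double-stranded RNA. Gene-rich arms carry such clusters at scattered genes, pseudogenes and non-coding RNAs, unlike the transposon-rich regions around the centromeres. The table counts reads per gene without their length or strand, so these classes could not be separated.

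The loci with the highest and second highest ratio in the rule were short non-coding RNAs, shown in their annotated orientation (TAIR10.1 build). AT3G05025, a long non-coding RNA at chr3:9707053-9707354 on the plus strand, had the highest ratio of lowest rls6 value to highest other value, and its first 300 of 302 bases are given. AT1G06417 is a non-coding RNA of 281 bases at chr1:11139772-11140052 on the minus strand, of which 30.2% are G or C, and had the second highest ratio. Neither sequence has capitals, since no base was singled out.
AT3G05025: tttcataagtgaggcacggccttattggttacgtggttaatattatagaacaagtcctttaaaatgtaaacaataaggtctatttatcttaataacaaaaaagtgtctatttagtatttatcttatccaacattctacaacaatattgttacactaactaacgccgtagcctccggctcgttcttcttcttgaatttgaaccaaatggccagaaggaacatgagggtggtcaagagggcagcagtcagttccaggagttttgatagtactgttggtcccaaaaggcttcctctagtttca
AT1G06417: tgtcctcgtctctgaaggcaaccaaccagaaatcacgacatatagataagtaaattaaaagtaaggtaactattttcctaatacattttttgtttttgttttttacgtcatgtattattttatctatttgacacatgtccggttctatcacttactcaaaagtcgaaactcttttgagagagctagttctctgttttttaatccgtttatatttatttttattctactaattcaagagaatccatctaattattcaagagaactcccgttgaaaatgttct

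Several chosen loci resembled each other. AT3G28674 (chr3:10747818-10747994, minus strand) and AT5G04853 (chr5:1410527-1410703, minus strand) are single-exon genes for uncharacterized proteins of 177 coding bases each, identical at 166 of them. Capitals mark the 11 bases at which they differ.
AT3G28674: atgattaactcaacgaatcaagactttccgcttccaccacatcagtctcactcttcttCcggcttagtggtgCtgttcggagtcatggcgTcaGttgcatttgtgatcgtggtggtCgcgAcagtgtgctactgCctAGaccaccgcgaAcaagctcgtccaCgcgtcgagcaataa
AT5G04853: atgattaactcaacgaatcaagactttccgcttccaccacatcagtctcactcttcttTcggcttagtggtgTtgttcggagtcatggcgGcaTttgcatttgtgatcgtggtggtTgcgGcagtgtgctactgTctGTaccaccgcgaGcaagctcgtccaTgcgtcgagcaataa

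AT2G16620 and AT3G23650, annotated as kinase-like proteins, aligned at 87.8% identity over 498 bases. The stretches below lie in their coding exons, at chr2:7205400-7205526 and chr3:8510689-8510794, both on the minus strand. Capitals mark the longest stretch that both share, of 47 bases.
AT2G16620: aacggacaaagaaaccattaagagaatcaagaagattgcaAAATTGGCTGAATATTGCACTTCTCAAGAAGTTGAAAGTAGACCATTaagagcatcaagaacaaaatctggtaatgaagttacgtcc
AT3G23650: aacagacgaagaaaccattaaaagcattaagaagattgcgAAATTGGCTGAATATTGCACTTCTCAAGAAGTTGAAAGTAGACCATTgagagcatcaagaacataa

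Together the 78 loci gathered far more small RNA in rls6 than in the other genotypes. Their normalized reads summed to 12068, 11901 and 11977 in the rls6 libraries, against 3290, 3439 and 3586 in prors1 (LUC) plants and 3242, 3134 and 3097 in Col-0 (LUC). The rls6 libraries lay within a narrow band far above the other 6, among which each prors1 (LUC) library lay a little above every Col-0 (LUC) library. Of all reads of a library the loci took 1.86% to 2.01% in rls6, 0.493% to 0.584% in prors1 (LUC) plants and 0.493% to 0.610% in Col-0 (LUC).

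Per locus, the median of the means was 117 normalized reads in rls6, from 10.7 to 809. The median was 29.1 in prors1 (LUC) plants and 25.4 in Col-0 (LUC). Most loci were thus not silent elsewhere: 25 averaged under 10 normalized reads in Col-0 (LUC), 30 between 10 and 50, 13 between 50 and 100, and 10 at least 100. The ratio used by the rule had a median of 2.55 and lay between 2 and 3 at 51 loci, between 3 and 5 at 14, between 5 and 10 at 9, and at 10 or more at 4. The coefficient of variation among the rls6 libraries had a median of 8.41% and reached 52.1% at AT5G48280. The rule uses the lowest rls6 library and so favours loci with a small spread, and that of other loci was not computed. The lowest rls6 library was replicate 1 at 19 loci, replicate 2 at 26 and replicate 3 at 33.

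**Figure D1:**
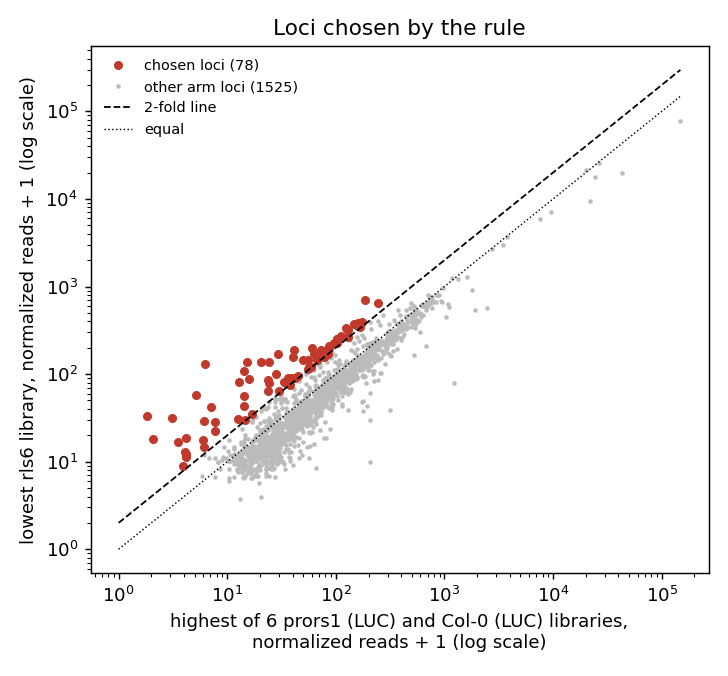
Each point is 1 of the 1603 arm loci with a mean of at least 10 normalized reads in rls6; the vertical axis gives its lowest rls6 library and the horizontal axis the highest of the 6 prors1 (LUC) and Col-0 (LUC) libraries (normalized reads + 1, log scales). The 78 chosen loci lie above the dashed 2-fold line, most of them close to it.

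Just inside the limit stood AT2G18580 with a ratio of 2.003, AT1G54905 with 2.003 and AT5G04267 with 2.01. Just outside stood AT3G25630 with 1.99, AT5G39955 with 1.97 and AT3G01025 with 1.96. AT3G25630 had 193, 179 and 210.1 normalized reads in rls6, against 72.6, 89.6 and 80.0 in prors1 (LUC) plants and 53.5, 68.3 and 60.5 in Col-0 (LUC), so loci on both sides of the limit had the same pattern. With the roles of the genotypes exchanged, 6 arm loci met the rule for prors1 (LUC) and 15 for Col-0 (LUC).

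The 4 loci named as markers of the set are 2 non-coding RNAs and 2 protein-coding genes. At AT3G05025, rls6 had 130.1, 137 and 129.8 normalized reads, against 5.26, 4.82 and 4.10 in prors1 (LUC) plants and 1.67, 2.41 and 2.05 in Col-0 (LUC). The ratio of rls6 to Col-0 (LUC) was 64.7 (95% exact counting interval 31.0 to 161) and that to prors1 (LUC) was 28.0 (16.5 to 51.6). Such intervals cover counting error only.

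AT1G06417 had 32.1, 38.6 and 35.7 normalized reads in the rls6 libraries. Against these stood 0 reads in all 3 prors1 (LUC) libraries and a single read in Col-0 (LUC). It was at least 35.0-fold higher in rls6 than in prors1 (LUC), taking a floor of 3 reads over the group. To Col-0 (LUC) the ratio was 127 (21.3 to 4822), an interval that a single read leaves wide.

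AT5G40020, a gene of the thaumatin family of pathogenesis-related proteins on chromosome 5, had 46.7, 36.8 and 30.7 normalized reads in rls6. The other genotypes had 3 reads in prors1 (LUC) plants and 1 read in Col-0 (LUC). Its ratios were 36.5 (12.6 to 186) to prors1 (LUC) and 142 (23.0 to 5207) to Col-0 (LUC). AT5G22860, a serine carboxypeptidase of the S28 family with 22 exons, had 189.6, 201 and 192 normalized reads in rls6, against 16.8, 24.1 and 17.4 in prors1 (LUC) plants and 27.6, 40.2 and 35.9 in Col-0 (LUC). Unlike the other 3 markers it had more than 10 normalized reads in every library.

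**Figure D2:**
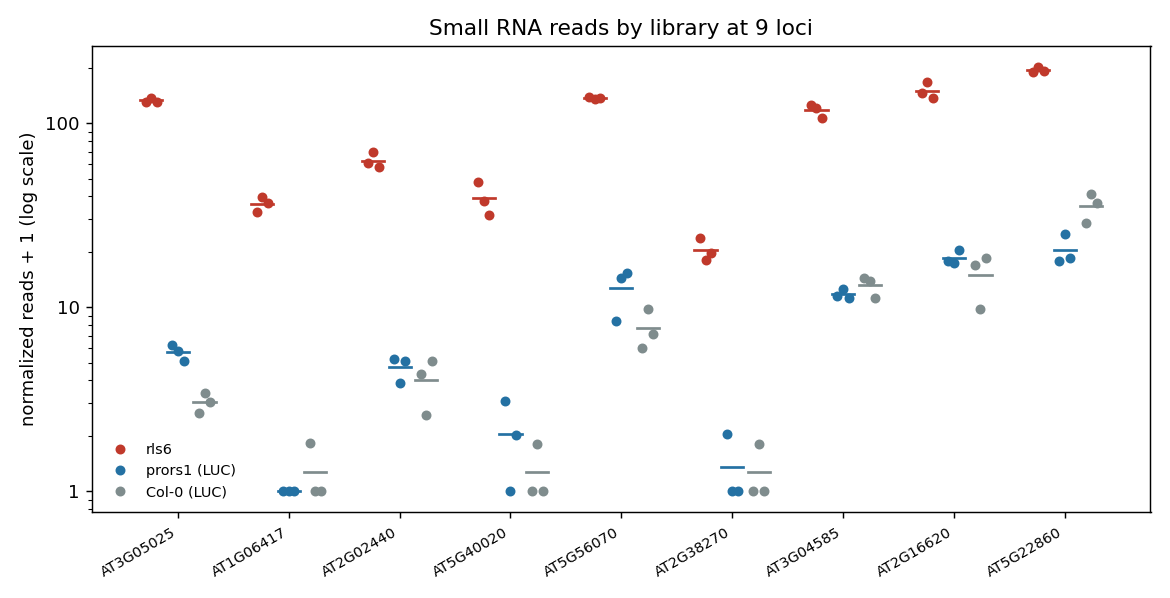
Points are the 9 libraries and short lines the group means (normalized reads + 1, log scale) at the 8 loci with the highest ratio and at AT5G22860. At each locus the 3 rls6 libraries lie above all others, and at AT1G06417 all prors1 (LUC) libraries lie at 0 reads.

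Further loci with a high ratio had few reads in the other genotypes. AT2G02440, an uncharacterized protein, had 59.5, 68.8 and 56.5 normalized reads in rls6, against 4.21, 2.89 and 4.10 in prors1 (LUC) plants and 3.34, 1.61 and 4.10 in Col-0 (LUC). CXIP2 (AT2G38270), which encodes a chloroplast glutaredoxin, had 22.9, 17.0 and 18.8 normalized reads in rls6 and 1 read in each of the other genotypes. AT5G56070, of unknown function, averaged 136 ± 1.38 (SD, n = 3) in rls6, 11.7 ± 3.81 in prors1 (LUC) plants and 6.67 ± 1.96 in Col-0 (LUC).

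The loci with most small RNA had reads in every library of the other genotypes too. The non-coding RNA AT3G08370 led with 830.0, 700.3 and 898 normalized reads in rls6, against 127, 119 and 185 in prors1 (LUC) plants and 184, 96.4 and 166 in Col-0 (LUC). The libraries of prors1 (LUC) and Col-0 (LUC) overlapped there, below all of rls6. AT1G64340, annotated as a serine/threonine kinase, followed with 669 ± 33.9 in rls6, 233 ± 8.90 in prors1 (LUC) plants and 214 ± 22.2 in Col-0 (LUC). ARP9, an actin-related protein gene, averaged 394 ± 24.6 in rls6, 137 ± 9.15 in prors1 (LUC) plants and 138 ± 7.64 in Col-0 (LUC).

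The remaining 9 of the 12 loci with most reads encode a phosphatidylinositol 4-kinase-like protein (AT1G67635), a PIN-domain protein (AT2G02550), an RNA-binding protein with RRM motifs (AT3G46470), a separase-like peptidase (AT4G24300), 3 uncharacterized proteins (AT1G48725, AT3G18700, AT4G34690), the pseudogene AT2G20298 and the non-coding RNA AT5G07605. Their means in rls6 lay between 272 normalized reads at AT5G07605 and 409.8 at AT1G67635. At AT1G67635, rls6 had 442, 407 and 381, against 158, 149 and 155 in prors1 (LUC) plants and 135, 130.2 and 125 in Col-0 (LUC). The distance between rls6 and the nearest other library was larger there than the spread within any genotype.

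By annotation, 51 of the 78 loci were protein-coding, 14 were long non-coding RNAs, 8 were transcribed pseudogenes and 5 other pseudogenes. Among the 1603 arm loci with at least 10 normalized reads in rls6, which include the 78, the shares were 56.4% protein-coding, 12.3% long non-coding, 5.30% transcribed pseudogenes and 24.3% other pseudogenes, against 65.4%, 17.9%, 10.3% and 6.41% of the chosen loci. The kinases were 7, with means in rls6 between 10.7 at SnRK1.3, of the energy-sensing SnRK1 kinase family, and 669 at AT1G64340. F-box and FBD proteins, a family of substrate receptors for protein degradation, were 3 (AT1G61320, AT2G30615 and AT3G21170). The product of 20 loci, among them the 5 other pseudogenes, was annotated only as an uncharacterized protein.

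The chosen loci were made mostly of single-copy sequence. At the median locus 98.9% of windows of 21 bases occurred once in the genome, compared with 93.9% among the 1603 arm loci. At least 90% of windows were single at 70 of the 78 loci (89.7%), against 923 of 1603 (57.6%). Loci with under 50% single windows numbered 0 among the 78 and 263 (16.4%) among the 1603. The lowest shares were 72.0% at AT5G04853 and 74.5% at AT3G28674, the pair printed above, then 81.0% at AT2G18530 and 87.1% at AT5G41494. How reads with several mapping places were counted is not given in the labels or notes, and the part this had in these shares was not tested. The loci were shorter than the 1603, with a median of 1004 against 1550 bases, and 511.5 against 1242 bases over annotated exons. Windows, inverted repeats, microRNA sites and relatives were all searched over the whole gene, introns included.

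**Figure D3:**
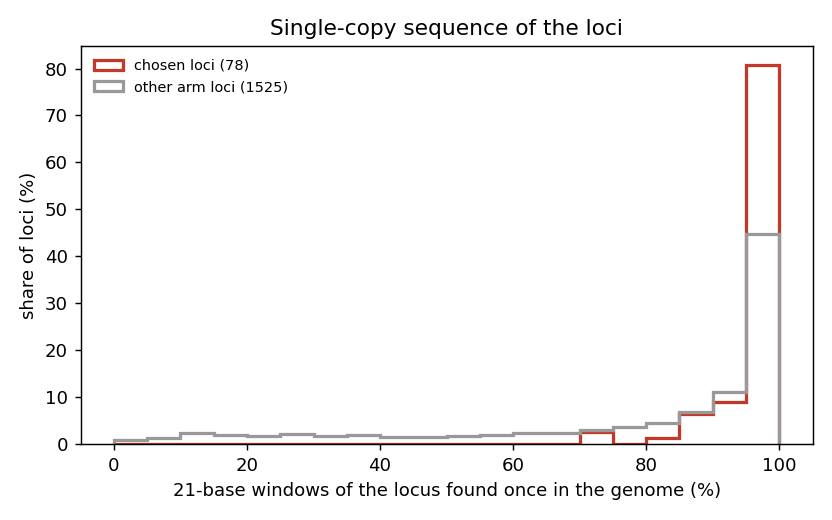
The horizontal axis gives the percentage of 21-base windows of a locus that occur once in the genome, and the vertical axis the share of loci per 5-point bin, for the 78 chosen loci and the other 1525 arm loci. The chosen loci gather in the highest bin and none lies under 70%.

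Long exact inverted repeats, which fold into hairpins, were not found. The longest exact inverted repeat within a chosen locus was 17 bases, at AT1G64340 and AT5G24200. Thus 0 of 78 held one of at least 21 bases, against 16 of 1603 (0.998%), a share too low to tell the sets apart. A microRNA site on the sense strand with at most 3 mismatches to an annotated mature microRNA, outside annotated microRNA genes, was present in 7 of 78 loci (8.97%) and in 143 of 1603 (8.92%), shares close to each other. With at most 2 mismatches, 2 of 78 (2.56%) and 67 of 1603 (4.18%) held such a site, and a count of 2 is too small to set these shares apart. These searches were chosen after the values had been seen.

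In the F-box gene AT3G21170, miR859, a microRNA known in Arabidopsis for sites in F-box genes, had a coding site with 2 mismatches at chr3:7420696-7420716. AT3G21170 had 136, 136 and 159.6 normalized reads in rls6, against 13.7, 13.5 and 22.6 in prors1 (LUC) plants and 19.2, 23.3 and 22.5 in Col-0 (LUC). Capitals mark the seed (bases 2 to 8) of each microRNA and the bases of each site that form Watson-Crick pairs with it.
miR859: tCTCTCTGttgtgaagtcaaa
AT3G21170 site: TTTGAtTTCtCAACAGAGAGA

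CHX18, a cation/H+ exchanger gene, and the non-coding RNA AT5G41612 on its opposite strand were both chosen and cover much of the same sequence on chromosome 5. CHX18 had 17.4, 26.4 and 30.7 normalized reads in rls6, against 3.16, 0.964 and 2.05 in prors1 (LUC) plants and 2.51, 0 and 3.07 in Col-0 (LUC). AT5G41612 had 59.5, 49.0 and 40.6 in rls6, against 3.16, 4.82 and 6.15 in prors1 (LUC) plants and 0.836, 1.61 and 2.05 in Col-0 (LUC). Whether counting used the strand is not given, so reads of these partners cannot be told apart.

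Both overlap a stretch of 182 bases that aligned at 80.8% identity to AT4G14810, the uncharacterized gene that the rule leaves out and that lies opposite MIR780. AT4G14810 had 1945, 1737 and 1863 normalized reads in rls6, against 248, 176 and 237 in prors1 (LUC) plants and 14.2, 14.5 and 18.4 in Col-0 (LUC). In CHX18 the best sites of the MIR780 microRNAs lie side by side in coding sequence, with 4 mismatches each, at chr5:16639292-16639312 for miR780.1 and chr5:16639313-16639333 for miR780.2, on the minus strand. Both exceed the limit of 3 mismatches used in the search above. This pair was looked up by name, and the share of other loci with sites of 4 mismatches was not computed.
miR780.1: tCTAGCAGctgttgagcaggt
CHX18 site of miR780.1: AtCTGCaCAACAGCTGtaAGA
miR780.2: tTCTTCGTgaatatctggcat
CHX18 site of miR780.2: ATGtCtGATATTCAtGAAGAt

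In the other mutant, the chosen loci did not all stay at the level of Col-0 (LUC). The test was limma on log2(normalized reads + 1) over 4766 loci, with Benjamini-Hochberg adjustment over all of them. Of the 78 loci 77 entered it, SnRK1.3 having too few reads. In prors1 (LUC) against Col-0 (LUC), 18 rose and 5 fell, 29.9% of those tested, while 14.4% of all tested loci passed (7.74% higher and 6.63% lower). A gain over Col-0 (LUC) was thus not limited to rls6 at every locus, although by the rule rls6 was higher at each. The rule also capped the values of both genotypes compared here, and the rls6 libraries it used enter limma's shared estimate of the spread. All tested loci include loci outside the arms. What these limits did to the shares was not tested. DESeq2 on recovered reads called 11 of the chosen loci, 9 higher and 2 lower, where it called 7.62% of all tested loci (4.3% higher and 3.32% lower), so 12 of the 23 limma calls were lost there. On a reads-per-million scale, on which the median log2 difference of all tested loci was -0.12, the split was 13 higher and 10 lower, where 4.43% of all tested loci were higher and 9.53% lower.

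A locus could enter the test through its rls6 reads alone, as 25 of the 77 did. Among the other 52, which had at least 10 normalized reads in 3 or more of the 6 prors1 (LUC) and Col-0 (LUC) libraries, 11 rose and 4 fell, or 28.8%. The median log2 difference over the 77 was 0.15, beside 0.01 over all tested loci. The libraries of prors1 (LUC) and Col-0 (LUC) did not overlap at 31 of the 77 (40.3%), compared with 27.5% of all tested loci. They did not overlap at any of the 23 called, nor at 95.2% of all 685 called loci.

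The largest rise in prors1 (LUC) was at a pair of overlapping genes on chromosome 1, the pentatricopeptide repeat gene AT1G28000 and AT1G28005 on its opposite strand. Pentatricopeptide repeat genes are known sources of secondary siRNAs in Arabidopsis. AT1G28005 had 33.9, 37.7 and 44.6 normalized reads in rls6, 15.8, 12.5 and 8.21 in prors1 (LUC) plants and 0 reads in Col-0 (LUC). The genotypes thus formed 3 separate levels. AT1G28005 was at least 43.9-fold higher in rls6 than in Col-0 (LUC), taking the floor of 3 reads over the group, and the lower exact 95% counting limit of this ratio was 35.2. Its log2 difference between prors1 (LUC) and Col-0 (LUC) was 3.68 ± 0.36 (SE, limma adjusted p = 1.19e-07). AT1G28000 had 42.1, 42.4 and 57.5 in rls6, 10.5, 6.75 and 13.3 in prors1 (LUC) plants and 0.836, 0.803 and 0 in Col-0 (LUC), with a log2 difference of 2.86 ± 0.37 between prors1 (LUC) and Col-0 (LUC) (limma adjusted p = 5.90e-06). Both were among the 25 loci that entered the test through rls6, each with 10 normalized reads in only 2 of the 6 prors1 (LUC) and Col-0 (LUC) libraries.

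The same order of levels held at AT1G61320, an FBD and leucine-rich repeat gene. It had 71.5, 63.1 and 54.5 normalized reads in rls6, 9.47, 9.64 and 13.3 in prors1 (LUC) plants and 1.67, 2.41 and 3.07 in Col-0 (LUC). Its log2 difference between prors1 (LUC) and Col-0 (LUC) was 1.81 ± 0.29 (limma adjusted p = 0.000119). AT3G46565, of the NAC transcription factor family, had 254, 248 and 258 in rls6, 102, 80.9 and 91.3 in prors1 (LUC) plants and 40.1, 24.9 and 35.9 in Col-0 (LUC), with a log2 difference of 1.44 ± 0.15 (limma adjusted p = 2.82e-07). AT4G24300, AT1G54905, AT5G05755, AT5G01440 and AT5G39205 also rose in prors1 (LUC), by 0.71 to 0.89 on the log2 scale.

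These 9 loci stayed past the threshold in all 20 settings tried, although 3 of them (AT1G28000, AT1G28005 and AT1G61320) were among the 25 that entered through rls6. Another 9 rose in prors1 (LUC) in the main fit and lost the call in at least 1 other setting: AT2G36810, AT5G07715, AT5G41612, AT3G05025, AT3G28922, AT2G18530, AT2G18580, AT2G30615 and AT5G39640. The first 4 of these reached 10 normalized reads in 0 of the 6 prors1 (LUC) and Col-0 (LUC) libraries. They entered the test through rls6 alone, where the rule had chosen them as high, so their calls are given as description. The marker AT3G05025, 1 of these 4, had a log2 difference of 0.91 ± 0.28 (limma adjusted p = 0.0314, and from 0.00381 to 0.392 over the settings). Its call was lost without 7 of the 9 libraries in turn.

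The 5 loci that fell in prors1 (LUC) include the marker AT5G22860, whose values are given above. Its log2 difference from Col-0 (LUC) was -0.80 ± 0.17 (limma adjusted p = 0.00256), and it kept the call in all 20 settings. AT3G22050, a cysteine-rich secretory protein gene, had 30.2, 31.1 and 28.7 normalized reads in rls6, 0, 4.82 and 4.10 in prors1 (LUC) plants and 13.4, 13.7 and 7.17 in Col-0 (LUC). It fell by 1.95 ± 0.48 on the log2 scale (limma adjusted p = 0.00708), and lost the call only where the mean-variance trend was left out (0.0671). AT3G22050 was also among the 25 loci that entered the test through rls6. It reached 10 normalized reads in only 2 of the 6 prors1 (LUC) and Col-0 (LUC) libraries, so this fall is given as description. AT2G20298, AT2G45090 and AT2G19420 fell by 0.47 to 0.52 and each lost the call in several settings.

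**Figure D4:**
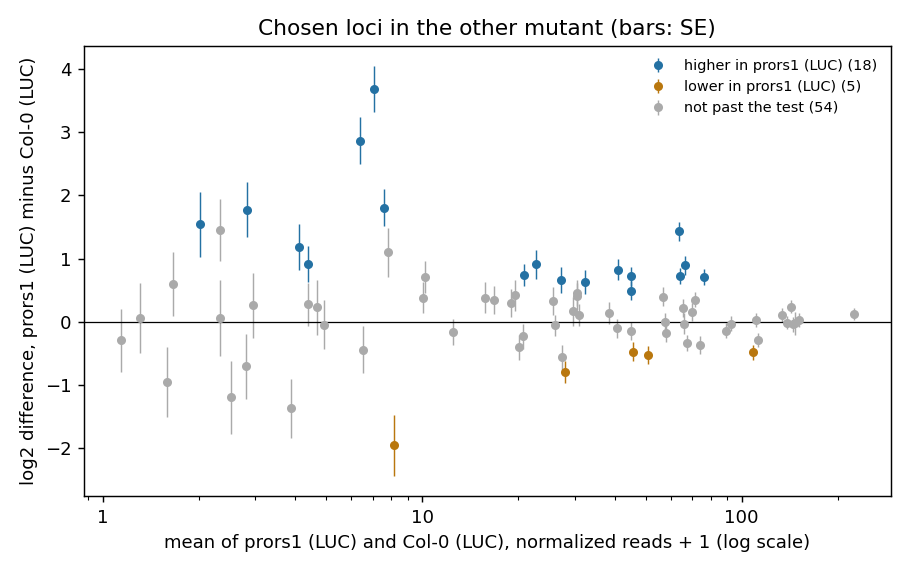
Points are the 77 tested loci, with the mean of prors1 (LUC) and Col-0 (LUC) on the horizontal axis (normalized reads + 1, log scale), the log2 difference of prors1 (LUC) minus Col-0 (LUC) on the vertical axis and its SE as bars. The 18 loci higher in prors1 (LUC) plants and the 5 lower ones are coloured by the limma call, and the 54 others lie on both sides of 0.

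Most annotated neighbours that were not chosen had few small RNAs in any genotype. The nearest listed genes on each side that did not overlap, lay within 5 kb and were not chosen themselves numbered 132. Of these, 105 averaged under 1 normalized read in rls6, 17 from 1 to under 10, and 10 at least 10. Among all arm loci 1603 of 29624 averaged at least 10, so reads under 10 were common to arm loci in general. The median of the neighbours was 0.330 normalized reads in rls6, 0.321 in prors1 (LUC) plants and 0.279 in Col-0 (LUC). At AT3G08370, the locus with most reads, the neighbours FLN1 and AT3G54100 averaged 0 and 0.330 in rls6. Beside the 4 markers, the neighbours that were not chosen (AT3G26490, AT1G06413, AT1G31175, AATP1, AT5G40030, AT5G03535 and AT5G22870) averaged at most 0.330 in rls6.

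Only 9 of the 132 had enough reads for the test, of which 3 were higher in rls6 against Col-0 (LUC), where 12.7% of all tested loci were higher and 4.95% lower. Against prors1 (LUC), 4 were higher and 1 lower, where 11.7% of all tested loci were higher and 5.16% lower. AT3G28680, counted as higher in both comparisons, entered the test through its rls6 reads alone. AT5G39645, a defensin-like gene 122 bases from AT5G39640, had 40.3, 45.2 and 47.6 normalized reads in rls6, against 17.9, 15.4 and 13.3 in prors1 (LUC) plants and 20.9, 8.03 and 15.4 in Col-0 (LUC). Its log2 difference was 1.61 ± 0.27 from Col-0 (LUC) (limma adjusted p = 0.00011) and 1.46 ± 0.27 from prors1 (LUC) (0.00043).

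AT3G28680, a carboxypeptidase gene of the S28 family, lies 756 bases from AT3G28674 and aligned to the marker AT5G22860 at 82.7% identity over 150 bases. It had 30.2, 30.2 and 30.7 normalized reads in rls6, against 5.26, 7.71 and 16.4 in prors1 (LUC) plants and 11.7, 8.84 and 9.22 in Col-0 (LUC). Its log2 difference in rls6 was 1.53 ± 0.32 from Col-0 (LUC) and 1.67 ± 0.32 from prors1 (LUC). Too few of the other libraries reached 10 normalized reads there, so it entered the test through rls6, where it was high. These differences are therefore given as description. The pseudogene AT1G28002, 1248 bases from AT1G28000, averaged 63.5 ± 8.94 in rls6, 18.5 ± 4.49 in prors1 (LUC) plants and 40.8 ± 9.91 in Col-0 (LUC). Its difference from Col-0 (LUC) was 0.64 ± 0.21 (limma adjusted p = 0.0381, and from 0.0127 to 0.196 over the settings), and it lost this call without any 1 of the rls6 libraries and without replicate 1 or 3 of Col-0 (LUC). Against prors1 (LUC), AT1G28002 rose by 1.74 ± 0.21 (limma adjusted p = 1.48e-06).

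BGLU12, a beta-glucosidase gene beside AT5G42265, was higher in rls6 than in prors1 (LUC) by 1.12 ± 0.26 (limma adjusted p = 0.00315), and its difference from Col-0 (LUC) was 0.24 ± 0.26 (limma adjusted p = 0.597). The F-box gene AT5G41500 had 14.7, 12.3 and 21.8 normalized reads in rls6, against a mean of 42.1 ± 2.80 (SD, n = 3) in prors1 (LUC) plants, and 3.34, 9.64 and 17.4 in Col-0 (LUC). It fell by 1.36 ± 0.36 in rls6 against prors1 (LUC) (limma adjusted p = 0.0109), the opposite direction to the pseudogene AT5G41494 beside it. This call was lost without rls6 replicate 2. AT4G22770, beside the tetratricopeptide gene AT4G22760, averaged 218 ± 45.5 in rls6, 211 ± 13.7 in prors1 (LUC) plants and 213 ± 48.3 in Col-0 (LUC).

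**Figure D5:**
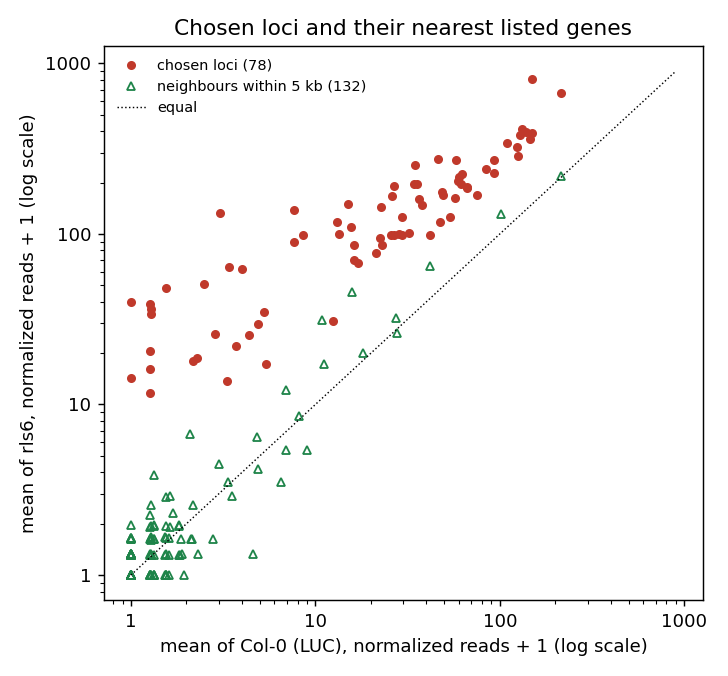
Circles are the 78 chosen loci and triangles their 132 neighbours within 5 kb, with the mean of Col-0 (LUC) on the horizontal axis and the mean of rls6 on the vertical axis (normalized reads + 1, log scales). The chosen loci lie above the line of equal means by the rule, and the neighbours gather near it, most of them at under 1 normalized read.

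A few chosen loci stood close together. The non-coding RNA AT3G05025 lay 557 bases from PIRL2, a leucine-rich repeat gene that had 100.8, 105 and 77.3 normalized reads in rls6, against 14.7, 20.2 and 19.5 in prors1 (LUC) plants and 20.1, 23.3 and 20.5 in Col-0 (LUC). AT3G23645, AT3G23650 and AT3G04585 followed each other within 2221 bases on chromosome 3. The pseudogene AT3G23645 had 17.4, 17.9 and 15.9 in rls6, 0 reads in prors1 (LUC) plants and 4 reads in Col-0 (LUC), and the non-coding RNA AT3G04585 had 125, 121 and 106 in rls6, against 10.5, 11.6 and 10.3 in prors1 (LUC) plants and 13.4, 12.9 and 10.2 in Col-0 (LUC). Kinase-like AT3G23650 between them had 96.2, 89.5 and 81.3 in rls6, against 5.26, 1.93 and 6.15 in prors1 (LUC) plants and 11.7, 4.02 and 4.10 in Col-0 (LUC). Further groups within 10 kb were AT1G28000 with AT1G28005, AT1G08077 with AT1G55950, AT5G00955 with AT5G00960, CHX18 with AT5G41612, and AT5G56061 with AT5G56070.

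Chromosome 5 held 25 of the 78 loci (32.1%), beside 12, 14, 18 and 9 on chromosomes 1 to 4. It held 21.5% of the 1603 arm loci with at least 10 normalized reads in rls6. Between 15 and 17 Mb of chromosome 5, 11 of 56 arm loci with at least 10 normalized reads in rls6 were chosen (19.6%), against 78 of 1603 (4.87%) overall. This stretch was picked after its count had been seen. It holds the marker AT5G40020, SnRK1.3, CHX18, AT5G41612, AT5G39205, AT5G39640, AT5G39920, AT5G39995, AT5G41494, AT5G42265 and AT5G05755. Of the 49 other tested loci there, 8 were higher and 2 lower in rls6 against Col-0 (LUC) by limma (16.3% and 4.08%), shares near those over all tested loci.

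Some chosen loci had sequence relatives among the listed genes. At 80% identity or more over at least 100 bases, 27 of the 78 loci had a relative among listed genes, and 4 of these, the pairs printed above, had a relative that was also chosen. In the first pair, AT3G28674 had 30.2, 27.3 and 28.7 normalized reads in rls6, against 2.10, 6.75 and 3.08 in prors1 (LUC) plants and 2.51, 4.02 and 5.12 in Col-0 (LUC). AT5G04853 had 101, 111 and 85.2 in rls6, against 10.5, 18.3 and 22.6 in prors1 (LUC) plants and 12.5, 14.5 and 10.2 in Col-0 (LUC). Reads from their shared stretches could belong to either. Of the kinase pair, AT2G16620 had 146, 166 and 136 in rls6, against 16.8, 16.4 and 19.5 in prors1 (LUC) plants and 15.9, 8.84 and 17.4 in Col-0 (LUC).

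The relatives that were not chosen numbered 70, of which 42 averaged under 10 normalized reads in rls6. A mean of at least 10 was thus more frequent among them than among arm loci, where 1603 of 29624 reached it. Many of these relatives, however, were those of a single locus, AT4G10210. They often aligned to it over short stretches, as did NIT1 (168 bases), CRK40 (126) and IND (116). The relatives also include loci outside the arms. Of the 27 relatives tested, limma called 7 higher and 1 lower in rls6 against Col-0 (LUC), where 12.7% of all tested loci were higher and 4.95% lower. Those higher include AT4G14810, which the rule leaves out by name, and AT3G28925 and IND, both relatives of AT4G10210. Apart from AT4G14810, the largest difference was at AT3G28680 (1.53), already described, which entered the test through its rls6 reads alone. The pseudogene AT5G37442 followed. AT5G37442 met the numeric limits of the rule with a ratio of 2.20 and was left out by its identifier. This locus, a relative of the pseudogene AT3G26605, had 128, 132 and 129 normalized reads in rls6, against 28.4, 49.1 and 52.3 in prors1 (LUC) plants and 57.7, 48.2 and 52.3 in Col-0 (LUC), a log2 difference of 1.29 from Col-0 (LUC) (limma adjusted p = 6.91e-06).

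Annotated microRNA genes lay opposite 3 chosen loci. MIR156g, of the miR156 family that times the juvenile phase, lies opposite AT2G19420, MIR5017 opposite AT4G22760, and MIR2939 and MIR4243 opposite AT5G48280. The values of these microRNA genes were not analysed here. AT4G22760 had 17.4, 17.0 and 10.9 normalized reads in rls6, against 3.16, 1.93 and 2.05 in prors1 (LUC) plants and 1 read in Col-0 (LUC). The non-coding RNA AT2G08405 overlaps the F-box gene AT2G30615 on the opposite strand and was left out by its identifier alone, although it met the numeric limits with means of 132 in rls6, 49.5 in prors1 (LUC) plants and 33.1 in Col-0 (LUC). It was 1 of 7 such non-coding RNAs that met the numeric limits, were left out by identifier and lie outside the centromeric stretches by position.

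A list of 32 genes of DNA methylation, RNA-directed or not, was set beside the 78 loci and shared no gene with them. The list includes the polymerase subunits NRPD1 and NRPE1, RDR2, DCL3, AGO4 and DRM2. All 32 averaged under 10 normalized reads in rls6, with a median of 0.628, so the rule could not choose them. Among all arm loci 1603 of 29624 averaged at least 10. Only the chromatin remodeller gene DDM1 had enough reads for the test, so NRPD1, NRPE1, RDR2, DCL3, AGO4 and DRM2 were not tested. DDM1 averaged 6.68 normalized reads in rls6, 17.8 in prors1 (LUC) plants and 9.91 in Col-0 (LUC). Its log2 difference between rls6 and Col-0 (LUC) was -0.43 (limma adjusted p = 0.542). DDM1 thus did not pass in rls6 relative to Col-0 (LUC) by limma, edgeR or DESeq2, where limma called 17.6% of all tested loci. Its unadjusted limma p was 0.297. Against prors1 (LUC), a comparison added after its means had been seen, DDM1 fell by 1.18 ± 0.40 on the log2 scale (limma adjusted p = 0.048, and from 0.0168 to 0.281 over the settings). DDM1 had 4.58, 7.54 and 7.93 normalized reads in rls6, against 29.5, 9.64 and 14.4 in prors1 (LUC) plants, and this call held in 10 of 19 settings, ending without any 1 of the rls6 libraries, without replicate 1 or 3 of prors1 (LUC) and without Col-0 (LUC) replicate 3. Small RNA reads at these genes do not measure their mRNA.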

How the data were processed

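Small RNA libraries of 3 genotypes, 3 each, were grouped by title and genotype label. The tools named in the submitters' processing notes are Bowtie2, featureCounts, FastQC and Trimmomatic, with the build TAIR10. Their versions and settings, strand use and the treatment of reads with several mapping places are not given there. The signal values deposited by the authors are gene read counts scaled by a size factor for each library. All values were whole multiples of a step per library within 1e-06, so reads were recovered for 100% of values. The deposited table also holds the authors' own comparison (log2 fold changes, a test score, p-values), not used here.

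The members and lists were chosen with earlier results of these data known. limma 3.58.1 with a mean-variance trend was run on log2(normalized reads + 1), which understates differences at low reads. It took all 9 libraries, genotype as the only term, the 4766 loci that reached 10 normalized reads in 3 or more libraries, and an adjusted p of 0.05. edgeR 4.0.16 and DESeq2 1.42.0 on recovered reads were alternatives, as were other pseudocounts, filters and scalings, a replicate block and leaving out each library. The code was tested on simulated data. Positions, exons, microRNAs and sequences are from RefSeq's TAIR10.1, in which all 78 loci matched. Relatives were found with blastn 2.17.0. Named were the 4 markers, the 12 loci with most reads, the 8 with the highest ratio, those nearest the limit, those past the prors1 (LUC) test, close groups, neighbours past the test and loci with the named sequence features. A gene without a symbol is named by its identifier.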

Additional observations from a re-analysis of the deposited data

How the results depend on the processing

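The number of chosen loci depends on the limit: 128 at a fold of 1.5 and 27 at a fold of 3, beside 78 at 2. It was 66 to 85 under other minimum means, pseudocounts and on a reads-per-million scale, and 79 to 87 without any 1 library, in each case with at least 64 of the 78 kept. Chosen loci past the test in prors1 (LUC) against Col-0 (LUC) numbered 23, and 11 with DESeq2, for which the cause was not tested. They numbered 16 to 25 under the other alternatives apart from the replicate block, and 17 to 26 without any 1 library. Among the calls lost, AT2G20298 lost it without prors1 (LUC) replicate 1, AT2G45090 without replicate 2 and AT2G36810 without replicate 3 of that genotype, and AT3G28922 without Col-0 (LUC) replicate 3. AT2G30615 lost it without 3 libraries in turn, AT5G41612 without 5, AT2G18580 and AT5G39640 without 6, AT2G19420 and AT3G05025 without 7 and AT5G07715 without 8. No direction of a tested difference at a named locus was reversed where the main fit had made a call.

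Neighbours past the test numbered 2 to 4 against Col-0 (LUC), beside 3, and 4 to 6 against prors1 (LUC), beside 5. Replicate numbers are shared between genotypes, but same-numbered libraries correlated at only -0.0182 to 0.153, with 2 of 9 pairs over 0.1, and not every library correlated best with its own number, so they were not taken as paired. With a replicate block 30 chosen loci passed in prors1 (LUC) against Col-0 (LUC), 4 neighbours against Col-0 (LUC) and 5 against prors1 (LUC). DDM1, the only tested gene of the methylation list, did not pass against Col-0 (LUC) there. Depth limits loci with under 4 reads in a genotype, 9 of the 78 in Col-0 (LUC), where ratios have wide intervals.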
